A study of Mus musculus with 22 samples.

Results

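Horizontal cells were 139 of the 26764 single cells in 6 scRNA-Seq libraries of WT and AdipoR1-/- (KO) mice. The libraries were taken at postnatal days 19, 25 and 30 (P19, P25 and P30). The paper describes the cells as coming from the retina and the retinal pigment epithelium (RPE). A cell was counted as a horizontal cell when it held a UMI (a unique molecular identifier, 1 captured RNA molecule) of at least 2 of the transcription factor genes Onecut1, Onecut2 and Lhx1 and none of Slc17a6, Slc6a9, Grm6 and Aqp4, which mark ganglion cells, glycinergic amacrine cells, ON bipolar cells and Müller glia. The WT libraries gave 28 cells at P19, 19 at P25 and 13 at P30, and the KO libraries gave 48, 16 and 15. The starburst amacrine, other amacrine, ganglion, ON bipolar and rod cells used for comparison below share no cell with them. Their marker rules were written to leave out nearly all such cells, so this is no check of identity. A UMI of the rod genes Nrl or Nr2e3 was present in 43 of the 139 cells.

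The study compared mice lacking ADIPOR1, a receptor for adiponectin that is linked to ceramide breakdown, with WT mice on the C57BL/6J background, through the weeks in which KO photoreceptors degenerate. The KO allele was a targeted Adipor1 allele made in 129 cells and backcrossed to C57BL/6J, and mice of both sexes were used. Each combination of genotype and age was 1 single-cell library from pooled tissue of more than 1 mouse, so no library has a replicate of its own age. The P30 pair was sequenced on another instrument than the P19 and P25 libraries, so age P30 and instrument cannot be told apart. Bulk RNA-Seq of whole retina at P30 was available from 4 WT and 4 KO samples of 22734843 to 35118164 counts.

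Horizontal cells are the lateral interneurons of the outer retina. Their processes contact the terminals of rods and cones, where ionotropic glutamate receptors read the photoreceptors' release, and they return an inhibitory feedback signal that shapes the contrast of the image. They are coupled to one another by gap junctions, hold the vesicular inhibitory amino acid transporter, and are recognised by the calcium buffer calbindin and by the ONECUT, LHX1 and PROX1 transcription factors that direct their formation.

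The cells carried the markers that the selection did not use. Every one of the 139 cells held UMIs of Calb1 (calbindin) and of Sept4 (a septin), and 94.2% held Prox1. Calb1 ranged from 1 to 283 UMIs per cell, so some cells were weakly marked. A KO P25 cell of 6558 UMIs held 1 UMI of Calb1, 2 of Sept4 and 0 of Prox1. Of 6 markers outside the selection (Calb1, Prox1, Sept4, Gja10, Tfap2a and Tfap2b), 129 cells held at least 4 and none held fewer than 3. Gja10 was held by 32.4% of the cells. Calb1 reached a median of 5508 CPM per cell (CPM is a gene’s UMIs per 1000000 UMIs counted), with 4295 and 7257 as quartiles. In rods, which lack calbindin, 4.02% of cells held a Calb1 UMI, at a median depth of 1273 UMIs per cell against 14440 in horizontal cells and 2648 in all other cells. All of these levels describe the chosen cells and carry no test.

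The edge of the selection was sharp on one side and soft on the other. All 3 factor genes were present in 111 cells and 2 of them in 28. The 294 cells with only 1 of the 3 genes and none of the 4 barred genes had a pooled Calb1 level of 174 CPM, and 13.3% of them held any Calb1. Of 200 cells with at least 2 of the 3 genes, 61 were left out for a UMI of a barred gene, and 20 of those had a single such UMI. These 20 had a pooled Calb1 level of 5289 CPM and a median of 21403 UMIs per cell, close to the kept cells in Calb1. All 61 together had 2506 CPM of Calb1, and 72.1% of them held it. Sept4 was held by 93.4% of the 61. Their median was 4 of the 6 markers outside the selection, as in the kept cells, so that count does not set the kept cells apart.

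**Figure D1:**
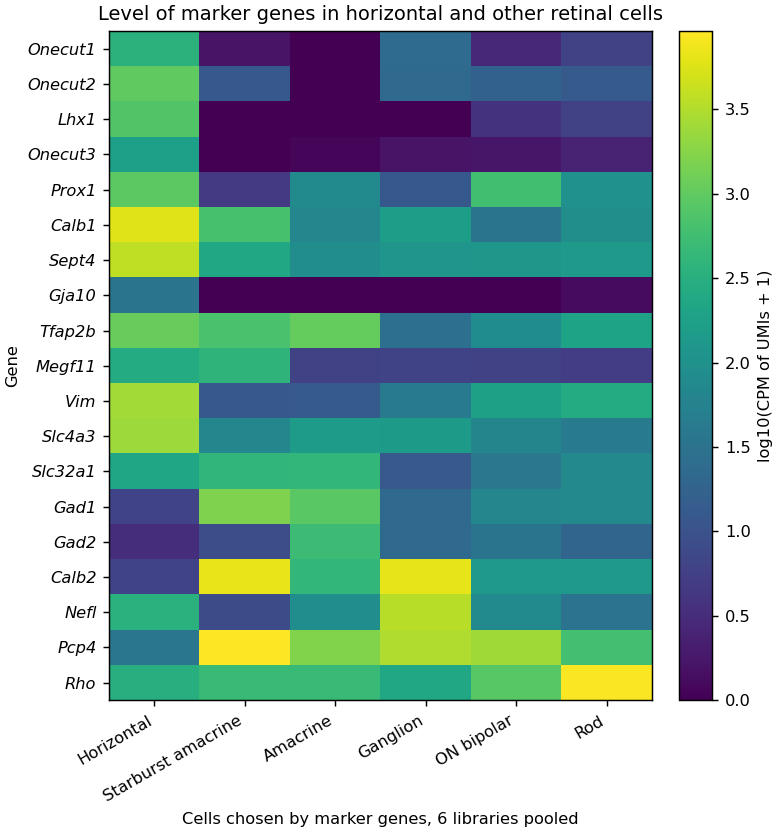
Level of 19 genes, as log10 of CPM of UMIs plus 1 (colour), in horizontal cells and in 5 other groups of retinal cells chosen by marker genes, with the 6 libraries pooled. Calb1 stood at 5809 CPM in horizontal cells and 655 CPM in starburst amacrine cells, while Gad1 stood at 5.16 CPM in horizontal cells and 901 CPM in amacrine cells.

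A set of 40 leading genes had the highest ratio of the level in horizontal cells to that in all other cells, between 34.8 and 273. Together they made up 1.74% of the UMIs of horizontal cells and 0.0327% of the UMIs of all other cells. Gja10, the connexin of mouse horizontal cell gap junctions, led the list with 69 UMIs here and 12 elsewhere. The list held further transcription factor genes of this lineage (Onecut3 and the selecting genes themselves), the antisense RNA Lhx1os, and Gm16551. The latter lies next to Onecut1 on chromosome 9 (74847983 to 74860134, GRCm38), and reads of such neighbours on overlapping or nearby transcripts may not separate fully.

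Receptors and transporters formed a second part of the list. Adra2a, an alpha-2 adrenergic receptor, stood at 507 CPM against 4.94 CPM in other cells. F2r, the thrombin receptor, stood at 318 CPM against 5.65 CPM, and the adhesion receptor gene Adgrb1 at 1270 CPM against 34.4 CPM. Slc4a5, a sodium bicarbonate cotransporter, and Wnk4, a kinase that controls ion transporters, were 35.3 and 65.6 times higher than elsewhere. Bsnd, the barttin subunit of chloride channels, had 163 UMIs in horizontal cells and 44 in all other cells. Tpm3, a tropomyosin, was the most abundant leading gene after Calb1, at 3432 CPM.

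Genes for reading glutamate were those of AMPA receptors. Gria2, Gria4 and Gria3 stood at 250, 126 and 96.7 CPM, while Gria1 had only 4 UMIs in all horizontal cells. The AMPA receptor partners Cacng3 and Cacng2 stood at 191 and 91.5 CPM. Grin1, the obligate NMDA receptor subunit, stood at 177 CPM, above its level in amacrine cells (68.4 CPM), but Grin2a and Grin2b had 1 UMI each. The metabotropic receptor gene Grm5 had 10 UMIs, and Grm6 was barred by the selection.

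The GABA genes split in the same cells. Slc32a1, the vesicular transporter for GABA and glycine, was present in 88.5% of horizontal cells at 218 CPM. Gad1 and Gad2, the GABA synthesising enzymes, had 11 and 5 UMIs, and 3.6% of horizontal cells held Gad1, which is below the 4.22% of the shallower rods and is read as background. Slc6a11, a GABA uptake gene, had 0 UMIs, which allows up to 1.41 CPM by a floor of 3 counts. Slc6a13, another GABA transporter, stood at 30 CPM in horizontal cells and 4.75 CPM in amacrine cells. Gabra2, a GABA receptor subunit gene, had 120 UMIs.

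Among release genes, Syt2, a calcium sensor of synaptic vesicles, stood at 303 CPM in horizontal cells and 3.13 CPM in amacrine cells. Snap25 was at 4574 CPM in horizontal cells and 1908 CPM in amacrine cells. Rims1, an active zone gene, was at 20.2 CPM here and at 4273 CPM in starburst amacrine cells. Of the connexins, Gja10 and Gjc1 had 69 and 30 UMIs, and Gjd2, the connexin of many other retinal neurons, had 1.

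Ion handling genes were led by Slc4a3, an anion exchanger that moves bicarbonate, found in every horizontal cell at 2415 CPM against 149 CPM in amacrine cells and 43.6 CPM in rods. Carbonic anhydrase genes were low, with Car2 at 59.1 CPM in horizontal cells and 782 CPM in rods, and Car3, Car8 and Car14 without a UMI. Cacna1h, a T-type calcium channel, was at 267 CPM in horizontal cells and 11.6 CPM in amacrine cells. Vim (vimentin), an intermediate filament shared with glia, was at 2582 CPM, and Megf11, which spaces horizontal and starburst cells, was at 278 CPM and 374 CPM in these 2 cell types.

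Signals of other cells were present at a low level and differed by age. The 20 rod genes summed to between 827 and 1230 CPM in the P19 and P25 libraries, and to 6022 CPM (WT) and 7825 CPM (KO) at P30. Over WT libraries, the 9 Müller glia genes summed to between 425 and 596 CPM, and over KO libraries to between 522 and 833 CPM, with Aqp4 (barred) and Car14 at 0. The 9 microglia genes ranged from 22.8 to 50.3 CPM in WT and from 17.5 to 86.1 CPM in KO, with C1qc and Csf1r at 0. The 12 bipolar genes ranged from 47.4 to 93.4 CPM in WT and from 63.1 to 151 CPM in KO, and the 9 cone genes from 12.3 to 43.1 CPM and from 7.01 to 101 CPM, with Pde6c, Cnga3 and Cngb3 at 0. The 7 vascular genes ranged from 7.19 to 12.3 CPM in WT and from 10.5 to 29.2 CPM in KO, with Cldn5, Pecam1, Flt1, Rgs5 and Pdgfrb at 0. The 6 RPE genes reached at most 14.4 CPM in WT and 43.1 CPM in KO, with Rpe65, Lrat, Rgr and Best1 at 0. The ganglion cell list ranged from 337 to 598 CPM through Sncg and Nefh, with Pou4f1, Pou4f3, Thy1, Isl2 and the barred Slc17a6 at 0. The amacrine list ranged from 1859 to 2348 CPM through C1ql1 and Pax6, which horizontal cells share, with Chat, Slc5a7, Slc18a3, Tfap2c, Th, Vip and the barred Slc6a9 at 0. A barcode shared between libraries was found 49 times in the series and never among horizontal cells, and no doublet caller was run. The WT P25 library alone held Xist (1630 CPM in horizontal cells) and no Ddx3y, whereas the other 5 libraries held Ddx3y and no Xist, so sex and that library cannot be told apart.

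The P30 libraries differed from the P19 and P25 libraries in both genotypes, also for genes that define the cells. Prox1 was at 980 and 1130 CPM in the WT libraries of P19 and P25 and at 172 CPM at P30, and at 1060, 1023 and 179 CPM in KO. Onecut2 was 4.08 times lower at P30 in WT and 4.82 times lower in KO than the mean of the earlier ages, and Slc4a3 was 2.07 and 2.88 times lower. Calb1 and Sept4 did not follow this pattern. Calb1 was at 7266 CPM at P30 in WT, against 6599 and 5942 CPM before, and at 5815 CPM in KO, against 5593 and 3978 CPM. All 3 selecting genes were held by 26 of 28 WT cells at P19, 16 of 19 at P25 and 10 of 13 at P30. In KO they were held by 40 of 48, 15 of 16 and 4 of 15 cells. Median depth of WT horizontal cells was 22744, 9765 and 11495 UMIs at P19, P25 and P30, so it was not lowest at P30. In KO it was 17711, 20147 and 10108 UMIs. Age, instrument and rod RNA moved together here, in KO with depth as well, and cannot be told apart.

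The share of horizontal cells gave the first comparison of genotypes. In WT it was 0.515% of cells at P19 (exact 95% binomial interval 0.342 to 0.743), 0.435% at P25 (0.262 to 0.679) and 0.508% at P30 (0.271 to 0.867). In KO it was 0.906% at P19 (0.668 to 1.2), 0.284% at P25 (0.162 to 0.461) and 0.433% at P30 (0.242 to 0.713). The KO share was higher at 1 of 3 ages, with intervals that overlapped at P25, P30 and, between 0.668 and 0.743, at P19.

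The mean KO minus WT difference over the 3 ages was 0.0548 percentage points (SD 0.294, n = 3 ages), with p = 1.0 in an exact two-sided sign-flip permutation test whose smallest possible p is 0.25. Intervals cover counting error only. With 3 pairs the test could not reach 0.05 whatever the shares, so it cannot decide whether horizontal cells were lost or gained. The difference turned negative when each cell was thinned to 1000 UMIs (-0.0447), when all 3 factor genes were required (-0.033) and when no gene was barred (-0.0336). Thinning to 5000 UMIs left out every cell with fewer and kept 88 to 1885 cells per library. The mean share among these was 3.76% in WT and 4.82% in KO. The difference was then 1.06 percentage points and positive at 3 of 3 ages (exact sign-flip permutation p = 0.25). Because the share itself was larger, 1.06 is not on the scale of 0.0548.

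**Figure D2:**
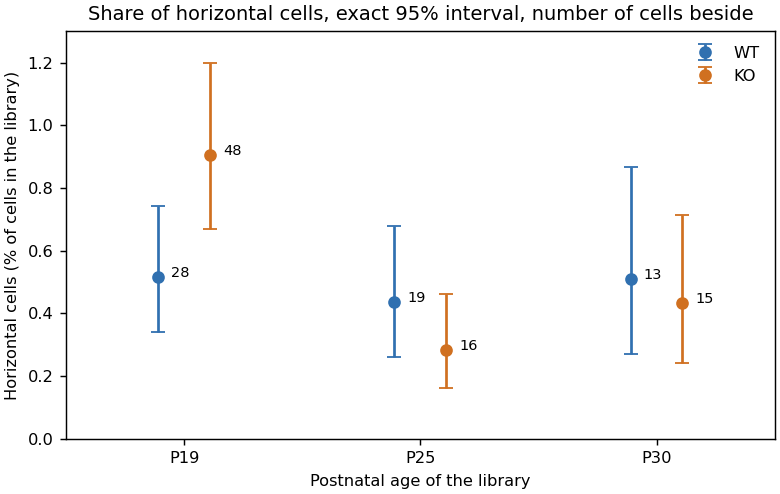
Horizontal cells as a percentage of the cells of each library (y axis) by age (x axis) in WT and KO, with exact 95% binomial intervals and the number of horizontal cells beside each point. The KO point lies above the WT point at P19 (0.906% against 0.515%) and below it at P25 and P30.

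The knocked-out gene was read first as a check of the labels. Adipor1 in horizontal cells was at 66.8, 106 and 64.7 CPM in the WT libraries of P19, P25 and P30, and at 17.3, 28 and 28.7 CPM in KO. The groups did not overlap, as was so for 2.84% of the tested genes in this direction, and 34 of 60 WT cells and 19 of 79 KO cells held a UMI. The log2 difference was -1.48 ± 0.31 (SE), with limma adjusted p = 0.23 over all genes and edgeR adjusted p = 6e-05. In bulk retina Adipor1 averaged 600 ± 8.09 CPM over WT and 139 ± 2.46 CPM over KO samples (SD, n = 4 each), with an edgeR log2 fold change of -2.11.

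In horizontal cells, limma called 11 genes higher and no gene lower in KO than in WT. Adipor1, lower in every KO library, was not called, so a gene without a call is not shown to be unchanged. The fit used the summed UMIs of each library with age as a term, at a Benjamini-Hochberg adjusted p below 0.05 over 8445 genes. These 11 are 0.13% of the genes tested. In each of the 11 all KO libraries lay above all WT libraries, as was so for 3.61% of all genes tested. At an unadjusted p below 0.05 there were 461 genes, of which 277 were higher and 184 lower, and edgeR on the same UMI sums called 30 higher and 13 lower, including all 11. The genes were the metallothioneins Mt1 and Mt2, the histone chaperone gene Nap1l1, Wdfy1, Phlda3, Wfs1, Avpi1, Chgb, Stat3, Junb and Bhlhe40. The last was outside the 10 genes that the naming rule takes in and is given after its value was seen. Each age contributed 1 library per genotype, so the 3 ages stand in for replicates, with 2 residual degrees of freedom. With so few, limma draws each gene's variance towards that of genes of similar level, and the p values rest on that as well.

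The metallothioneins, small proteins that bind zinc and copper and are induced by metals and stress, stood at the top. Mt1 was at 344, 389 and 467 CPM in the WT libraries of P19, P25 and P30, and at 2273, 1178 and 2685 CPM in the KO libraries. Every KO library lay above every WT library, and the log2 difference was 2.27 ± 0.19 (SE, limma adjusted p = 0.00084). Mt2 was at 36.9, 61.4 and 108 CPM in the WT libraries and at 374, 252 and 1666 CPM in KO, a log2 difference of 2.99 ± 0.29 (limma adjusted p = 0.0015). The increase was spread over cells: Mt1 UMIs were present in 27 of 28 WT and 44 of 48 KO cells at P19, where the median per cell was 301 CPM in WT and 1331 CPM in KO.

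The promoters of these 2 genes are shown because both rose together and lie close to each other on chromosome 8. Each is the RefSeq window from 250 bases before to 50 bases after the gene's start (GRCm38.p6, plus strand), printed 5′ to 3′, with capitals marking the core of the metal response element, TGCGCNC or TGCACNC on either strand. The Mt1 window, chr8:94178839-94179138, held 3 matches and the Mt2 window, chr8:94172368-94172667, held 4. Of 32851 promoter windows of this length, 25.7% held at least 1 match. A match is a run of letters and not evidence of binding.
Mt1: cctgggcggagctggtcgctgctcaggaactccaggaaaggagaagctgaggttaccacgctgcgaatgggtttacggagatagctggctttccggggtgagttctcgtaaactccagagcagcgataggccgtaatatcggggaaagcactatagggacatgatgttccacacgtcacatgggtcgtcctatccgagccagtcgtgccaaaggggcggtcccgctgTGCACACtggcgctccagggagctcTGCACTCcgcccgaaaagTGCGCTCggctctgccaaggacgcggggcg
Mt2: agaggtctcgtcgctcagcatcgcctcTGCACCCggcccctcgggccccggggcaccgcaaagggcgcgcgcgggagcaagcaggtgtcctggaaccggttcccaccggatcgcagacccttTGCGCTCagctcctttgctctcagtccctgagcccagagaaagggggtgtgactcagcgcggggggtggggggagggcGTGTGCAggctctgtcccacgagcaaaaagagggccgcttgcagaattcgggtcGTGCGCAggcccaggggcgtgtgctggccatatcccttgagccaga

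Nap1l1 showed the clearest difference that other cell types lacked. In horizontal cells it was at 1015, 1077 and 611 CPM in the WT libraries and at 2296, 3333 and 2326 CPM in KO. The KO libraries lay well above the WT libraries at every age, and the log2 difference was 1.57 ± 0.15 (limma adjusted p = 0.0012). In amacrine cells the same libraries gave 797, 805 and 527 CPM in WT and 664, 777 and 541 CPM in KO, which overlapped. Rods ranged from 412 to 505 CPM in WT and from 480 to 563 CPM in KO, and ON bipolar cells from 284 to 412 CPM and from 286 to 406 CPM. The promoter window of Nap1l1 held 0 matches to the metal response core.

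Chgb, which encodes chromogranin B of dense-core granules, was at 2294, 2101 and 1387 CPM in the WT libraries and at 3487, 5348 and 4157 CPM in KO. The log2 difference was 1.18 ± 0.16 (limma adjusted p = 0.016), with no overlap between the groups. Wfs1, an endoplasmic reticulum membrane protein gene mutated in Wolfram syndrome, was at 15.8, 32.8 and 21.6 CPM in the WT libraries and at 166, 179 and 79 CPM in KO. Avpi1 was at 100, 102 and 86.2 CPM in the WT libraries and at 222, 301 and 302 CPM in KO, a log2 difference of 1.45 ± 0.2. Both passed at a limma adjusted p of 0.015.

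The other called genes included those of 3 transcription factors. Stat3, which relays cytokine signals, was at 12.3, 20.5 and 0 CPM in WT, where 0 UMIs at P30 allow a level of up to 21.6 CPM, and at 78.3, 126 and 108 CPM in KO (log2 difference 2.96 ± 0.44, limma adjusted p = 0.025). Junb, an immediate early gene, was at 12.3, 16.4 and 7.19 CPM in the WT libraries and at 93, 63.1 and 101 CPM in KO. Bhlhe40, a stress and clock related repressor, was at 134, 164 and 50.3 CPM in the WT libraries and at 246, 470 and 223 CPM in KO. Junb and Bhlhe40 both had a limma adjusted p of 0.035. Of 15 alternatives, Stat3 passed in 9, Junb in 7 and Bhlhe40 in 9. These include a selection by at least 2 of 6 markers that held the same cells as the main fit, so that pass adds no support. The Junb difference went from 2.38 to 1.41 when 1 UMI of a barred gene was allowed (limma adjusted p = 0.85), and that of Bhlhe40 from 1.46 to 0.87 when all 3 selecting genes were required (limma adjusted p = 0.88).

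Wdfy1 and Phlda3 lie on chromosome 1, as Adipor1 does. Phlda3, a p53 target that restrains AKT, starts 1.35 Mb from the start of Adipor1 (chromosome 1, 135766119 to 135769136), and Wdfy1, an endosomal adaptor, starts 54.7 Mb from it (79702262 to 79776143, GRCm38). Phlda3 was at 5.27, 12.3 and 14.4 CPM in the WT libraries and at 66.4, 80.6 and 122 CPM in KO (log2 difference 2.55 ± 0.33). Wdfy1 was at 10.5, 12.3 and 7.19 CPM in the WT libraries and at 130, 80.6 and 93.3 CPM in KO (log2 difference 2.76 ± 0.34, limma adjusted p = 0.0099). The 2 groups of libraries were far apart for both genes.

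**Figure D3:**
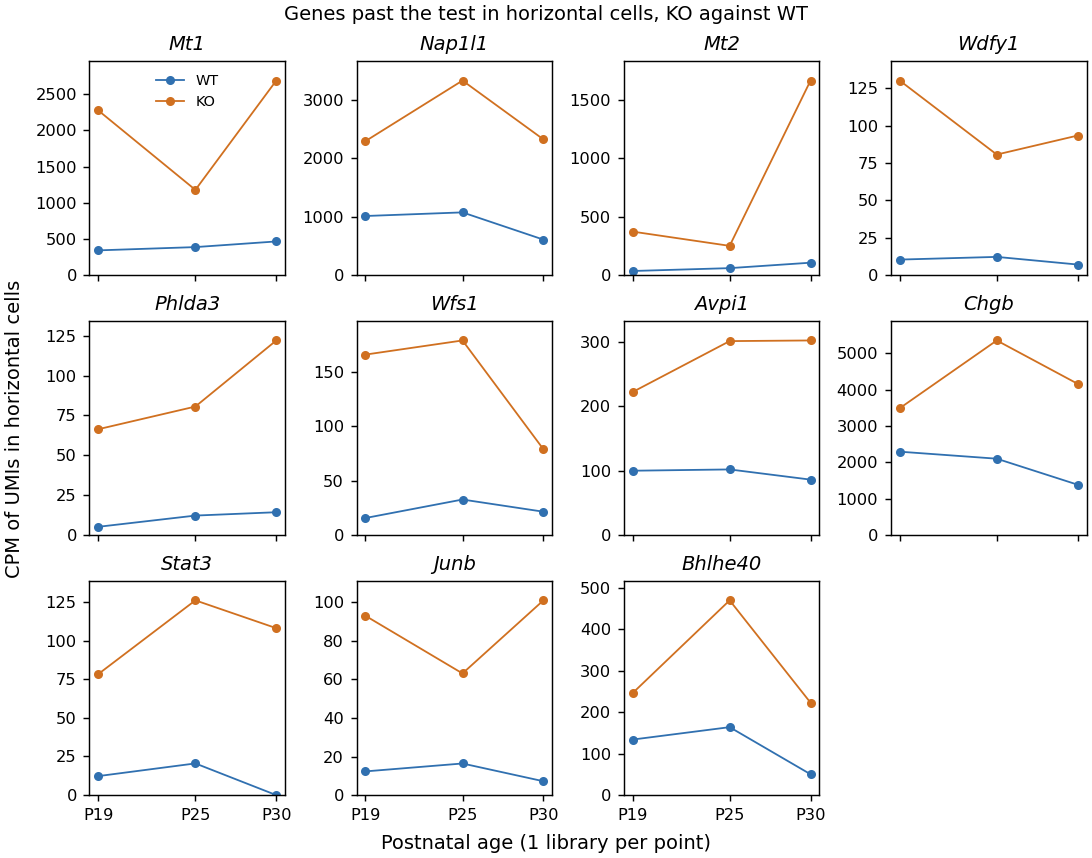
CPM of UMIs in horizontal cells (y axis, from 0, own scale per gene) by age (x axis) for the 11 genes past the test, with 1 library per point in WT and KO. Every KO point lies above every WT point for each gene, for example 1178 to 2685 CPM against 344 to 467 CPM for Mt1.

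The count of 11 depended on the choice of cells and of model. It fell to 0 when all 3 factor genes were required, which leaves 4 KO cells at P30, when no gene was barred, and when age was left out of the model. It rose to 25 without P25 and to 40 without P30. The latter fit holds libraries from 1 instrument only, which need not be 1 batch. Each of the 11 genes kept its direction in all of these fits. The fits without an age have fewer libraries and residual degrees of freedom than the main fit. They lean more on variance shared across genes, so a higher count from them is not stronger evidence.

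The same genes differed in how far other cell types shared them. Wdfy1 was higher in KO by 3.01 on the log2 scale in amacrine cells, 2.67 in ON bipolar cells and 1.62 in rods. The Mt2 difference was 2.92 in rods and 0.34 in amacrine cells, beside 2.99 in horizontal cells. The Stat3 difference was 1.54 in rods and 1.42 in ON bipolar cells, and that of Junb 1.34 and 0.62. Avpi1, Chgb and Nap1l1 stayed between -0.12 and 0.26 in these 3 cell types. Phlda3 and Wfs1 stayed between 0.28 and 0.49.

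A test of the difference itself, horizontal cells minus amacrine cells of the same libraries, passed for 2 genes of 8401 (0.0238%). These were Nap1l1, with a log2 difference of differences of 1.66, and Mt1, with 1.99, both at a limma adjusted p of 0.0038. With rods in place of amacrine cells, 1 gene of 8409 (0.0119%) passed, which was Nap1l1 (1.43, limma adjusted p = 0.021), and Mt1 gave 0.28 (limma adjusted p = 0.83). With ON bipolar cells, 5 genes of 8403 (0.0595%) passed, among them Nap1l1 (1.58, limma adjusted p = 0.0067) and Chgb (1.3, limma adjusted p = 0.023). The others, given after their values were seen, were Cd63, Cplx3 and Calb1. Calb1 had a difference of differences of -2.95 (limma adjusted p = 9.7e-05), with 13.5, 7.22 and 13.5 CPM in WT and 65.1, 38.4 and 123 CPM in KO bipolar cells. Phlda3, Wfs1 and Avpi1 did not pass against amacrine cells (limma adjusted p = 0.48, 0.88 and 0.63). Free RNA of other cells is shared within a library, and its part in these values was not tested. The rod genes summed to 6022 CPM in WT and 7825 CPM in KO horizontal cells at P30.

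**Figure D4:**
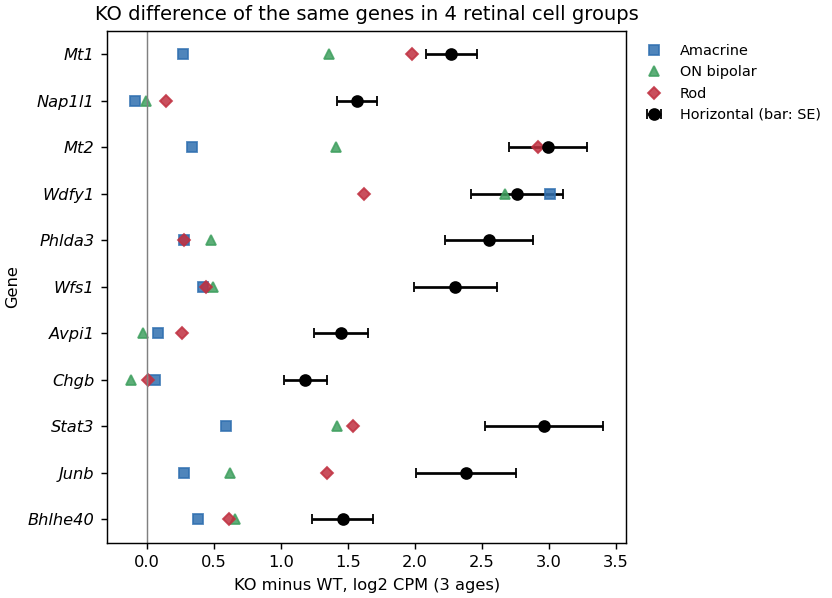
KO minus WT difference in log2 CPM (x axis) of the 11 genes (y axis) in horizontal cells, with the standard error as a bar, and in amacrine cells, ON bipolar cells and rods. Nap1l1 lies at 1.57 in horizontal cells and between -0.09 and 0.14 in the other groups, while Wdfy1 lies between 1.62 and 3.01 in all 4.

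Lists of genes for the cells' own functions gave no gene past the test in horizontal cells. Of 22 lists, 20 had a tested gene and 1 held a called gene. The median log2 difference was -0.05 over the 16 tested identity genes (3 higher and 13 lower in value), -0.02 over 14 glutamate receptor and partner genes, -0.17 over 7 GABA genes, 0.08 over 22 release genes, 0.35 over 19 channel genes and -0.04 over 11 calcium genes, beside 0.01 over all genes tested. Over 14 ceramide and adiponectin receptor genes it was 0.04 with none called, and over the 13 mitochondrially encoded genes it was -0.01. Calb1 gave -0.38 (limma adjusted p = 0.79), Sept4 -0.17, Prox1 0.01 and Slc32a1 0.22. A difference that misses the threshold is not shown to be absent with these 6 libraries.

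The list with called members was that of immediate early and stress genes, where 4 of 16 tested genes rose (Mt1, Mt2, Stat3 and Junb) and none fell, beside 0.13% of all genes tested. The lists were chosen with earlier results of these data known, so counts from this list are description and not independent support. Stat3 and Junb lost the call with TMM scaling (limma adjusted p = 0.052 and 0.057). The list's median log2 difference was 0.35. Fos was at 1.76, 4.1 and 7.19 CPM in the WT libraries and at 99.6, 14 and 21.5 CPM in KO (limma adjusted p = 0.8, edgeR adjusted p = 4.2e-08), and the heat shock gene Hspa8 gave 0.24 (limma adjusted p = 0.83). The chaperone genes Hsp90aa1 and Dnajb1 gave -0.02 and -0.32. In bulk retina 13 of the 25 genes of this list were called, all higher, beside 7.0% of all genes called higher.

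Genes with the largest lower values did not pass limma's test. Marc1, a mitochondrial amidoxime reducing enzyme gene and the sixth of the leading genes, also lies on chromosome 1, 50.4 Mb from Adipor1. It was at 151, 172 and 137 CPM in the WT libraries and at 38.5, 105 and 50.3 CPM in KO, without overlap (log2 difference -1.29 ± 0.26, limma adjusted p = 0.19, edgeR adjusted p = 1.5e-05). The neuropeptide gene Npy was at 137, 180 and 323 CPM in the WT libraries and at 51.8, 31.5 and 237 CPM in KO, with an overlap of the groups and a limma adjusted p of 0.37. Gm4258, Crip2 and Lgals1 gave -1.38, -1.11 and -1.12, and Arg2, Cpeb3 and Alg2 gave -1.25, -1.13 and -1.04 with overlapping groups.

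Bulk retina at P30 gave a measurement of the leading genes that their selection had not used. In a bulk sample, fewer horizontal cells and less RNA per horizontal cell cannot be told apart. Of the 40 leading genes, 36 were tested by edgeR and 4 passed (adjusted p below 0.05 and at least 1.5-fold), 3 lower and 1 higher, beside 10.0% of all 19381 genes (7.0% higher and 3.04% lower). Without the minimum fold change 12 passed, 6 in each direction, beside 30.9% of all genes. The median log2 fold change of the 36 genes was -0.03, beside 0.003 over all genes.

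Adra2a was at 32, 32.5, 30.6 and 30.3 CPM in the 4 WT retinas and at 15.9, 16.2, 14.2 and 14.8 CPM in the 4 KO retinas. The groups were far apart, and all KO samples lay below all WT samples as for 15.2% of all genes (log2 fold change -1.03 ± 0.061, SE, edgeR adjusted p = 3.5e-08). In single horizontal cells, Adra2a was at 639, 569 and 64.7 CPM in the WT libraries and at 540, 540 and 50.3 CPM in KO, a difference of -0.22 (limma adjusted p = 0.84). Of the Adra2a UMIs in the single-cell data, pooled over all ages, 68.4% lay in horizontal cells. At P30, the age of the bulk samples, 7 of 13 WT and 5 of 15 KO horizontal cells held Adra2a. The share at P30 alone was not computed. Gm16551 fell in bulk retina from a mean of 6.95 CPM in WT to 3.5 CPM in KO (log2 fold change -0.99, edgeR adjusted p = 2.1e-05) and gave -0.23 in horizontal cells (limma adjusted p = 0.85).

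Marc1 was at 1.39, 1.76, 1.32 and 1.55 CPM in WT retinas and at 0.879, 0.809, 0.609 and 0.883 CPM in KO retinas (log2 fold change -0.92 ± 0.19, edgeR adjusted p = 0.0021), so that both kinds of data had all KO samples below all WT samples. B3gnt5, a glycosyltransferase of the lactosylceramide series, was at 1.02, 1.06, 1.09 and 0.916 CPM in WT retinas and at 1.7, 1.53, 1.66 and 1.47 CPM in KO retinas (log2 fold change 0.64 ± 0.15, edgeR adjusted p = 0.0065). In horizontal cells B3gnt5 was at 29.9, 32.8 and 21.6 CPM in the WT libraries and at 71.7, 66.6 and 35.9 CPM in KO, without overlap and with a limma adjusted p of 0.83.

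The classical markers stayed under the minimum fold. Calb1 averaged 71.5 ± 2.46 CPM over WT and 61.2 ± 2.96 CPM over KO retinas (SD, n = 4 each), with every KO sample below every WT sample, a log2 fold change of -0.22 and an edgeR adjusted p of 0.0025, which is under the minimum fold. Sept4 gave -0.24 (edgeR adjusted p = 0.0021) and Lhx1 -0.37 (edgeR adjusted p = 0.042). Onecut2 gave 0.35 (edgeR adjusted p = 0.0097), Slc4a3 0.26 and Gja10 0. Of 20 identity genes tested, 1 passed both thresholds, beside 10.0% of all genes. It was Vim (145 CPM in WT and 282 CPM in KO, log2 fold change 0.95). Vim was at 2582 CPM in horizontal cells and is also a Müller glia gene. In bulk retina 3 of the 9 Müller glia genes were called higher, beside 7.0% of all genes. In horizontal cells Vim gave -0.01 (limma adjusted p = 0.99).

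Of the 11 genes called in horizontal cells, bulk retina called Mt1, Mt2, Stat3, Junb, Wfs1 and Phlda3 higher, beside 7.0% of all genes. Phlda3 had a log2 fold change of 0.65, and of 0.56 to 0.58 without KO replicate 4, WT replicate 3 or WT replicate 4, which is under 1.5-fold. The fold changes of Nap1l1 (0.15), Chgb (0.26), Avpi1 (0.37) and Bhlhe40 (0.56) had edgeR adjusted p values below 0.05 but were under 1.5-fold. All 9 microglia genes were called higher and 16 of 20 rod genes lower in the same bulk samples, beside 7.0% and 3.04% of all genes. The part of other cell types in these bulk values was not tested. Wdfy1 split within the KO group. It was at 30.4, 29.4, 33 and 32.3 CPM in the WT retinas and at 28.9, 55.1, 55.9 and 29.7 CPM in the KO retinas, so that 2 KO samples lay with WT and 2 well above (log2 fold change 0.44, edgeR adjusted p = 0.096).

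**Figure D5:**
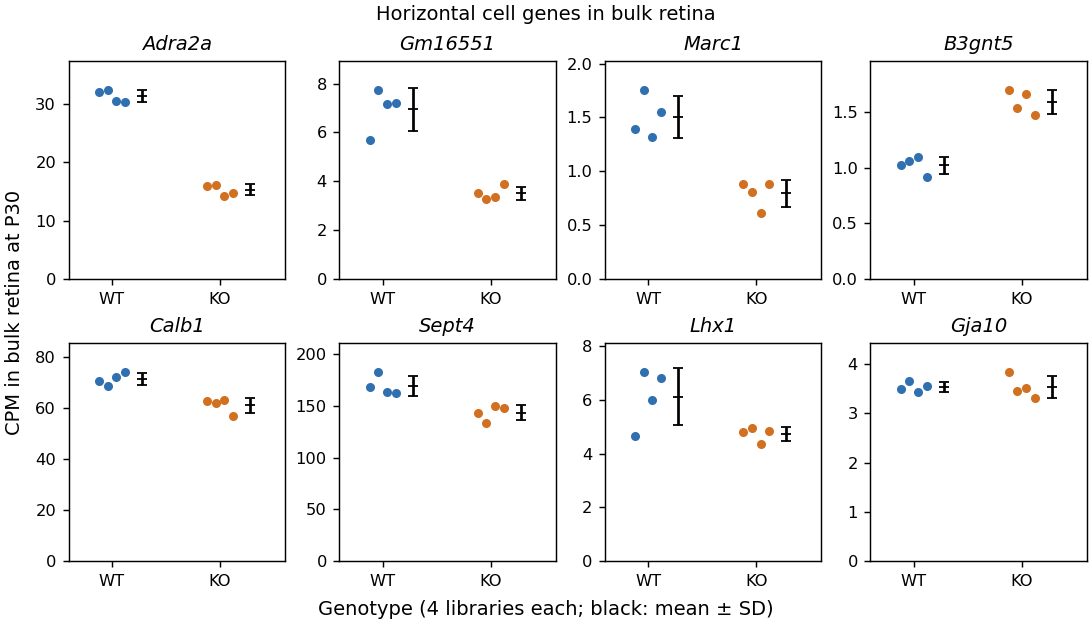
CPM in bulk retina at P30 (y axis, from 0, own scale per gene) in 4 WT and 4 KO samples for the 4 leading genes past the test and 4 classical markers, with the mean and SD in black. Adra2a falls from between 30.3 and 32.5 CPM to between 14.2 and 16.2 CPM, while Gja10 overlaps between the groups.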

How the data were processed

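The members and gene lists were chosen with earlier results of these data known. The authors deposited 1 single-cell table of natural log values, from 10x Chromium libraries processed with Cell Ranger 2.1 and Seurat 3.2.2 (mm10, per the submitters' processing notes). The values had been scaled to 10000 per cell and logged, both a second time, so UMIs were recovered by undoing both steps, and 99.99998% of values were whole within 0.01. The authors deposited bulk retina as raw read counts per gene. RPE samples were not used.

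UMIs of the horizontal cells of each library were summed, and genes with at least 20 UMIs were tested with limma 3.58.1 on log2 CPM (prior count 2) with genotype and age as terms, leaving out the 7 selecting genes. Differences between cell types used the same libraries. Bulk counts were tested with edgeR 4.0.16 (quasi-likelihood), calling adjusted p below 0.05 and at least 1.5-fold. P values measure only the spread between these libraries, and limma and edgeR moderate that spread across genes. Same-numbered bulk samples had correlated deviations (0.157 to 0.218), as had some with different numbers (up to 0.173). The values printed are from the fit without the replicate number, and the fit with it as a block was an alternative. Genes named were those of the selection and the fixed lists, the 40 leading genes, up to 10 called genes per direction by p, and the 8 higher and 8 lower genes with the largest difference among those with at least 100 UMIs and 1 direction at all 3 ages. The scripts were tested on simulated data. Alternatives were edgeR, DESeq2 1.42.0 and TMM scaling, other filters and selections of cells, and leaving out each age or sample (R 4.3.3, Python 3.11.15). Some genes are not reported here.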

Additional observations from a re-analysis of the deposited data

Results flagged for a closer look

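Bulk groups with 1 sample far from the others numbered 4 of 72, and chance alone gives about 1 in 20. Nefm was highest in WT replicate 2 (175 CPM), Megf11 lowest in KO replicate 4 (33.7 CPM), Phlda3 highest in WT replicate 2 (7.05 CPM) and Bhlhe40 lowest in WT replicate 1 (50 CPM).

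The KO minus WT difference differed between cell types by the test of the difference for 6 genes. For Nap1l1 the difference in horizontal cells exceeded that in amacrine cells by 1.66, in rods by 1.43 and in ON bipolar cells by 1.58 on the log2 scale. For Mt1 it exceeded that in amacrine cells by 1.99, and for Chgb, Cd63 and Cplx3 that in ON bipolar cells by 1.3, 1.99 and 1.35. For Calb1 the difference in horizontal cells minus that in ON bipolar cells was -2.95.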

How the results depend on the processing

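The count of 11 genes in horizontal cells became 43 with edgeR (30 higher, 13 lower), 8 with TMM scaling, 2 with a prior count of 0.5, 7 when 1 UMI of a barred gene was allowed, and 0 without age in the model, with all 3 selecting genes required or with no gene barred. Leaving out 1 age gave 12 (without P19, 8 of the 11 shared), 25 (without P25) and 40 (without P30). Those fits lean more on variance shared across genes than the main fit. Over 165 values of these genes under the alternatives, 112 kept the call, 53 lost it and 0 reversed. The alternative requiring at least 2 of 6 markers outside the selection held the same cells as the main fit. Its 11 kept calls were therefore fixed in advance. The mean share difference became -0.0447 with cells thinned to 1000 UMIs, -0.033 with all 3 genes, -0.0336 with no gene barred and -0.0386 without the 5% of cells with the most UMIs. With cells thinned to 5000 UMIs, on a mean share of 3.76% in WT and 4.82% in KO, it was 1.06. The 2 genes that differed from amacrine cells became 1 without age, 1 against rods and 5 against ON bipolar cells. Leaving out 1 age gave 10 to 44, with the same limit.

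In bulk retina the 4 called leading genes became 12 without a minimum fold and stayed 4 leaving out any sample. Phlda3 fell under the minimum fold in bulk (0.56 to 0.58) without KO replicate 4, WT replicate 3 or WT replicate 4, and Bhlhe40 passed it in 4 alternatives (0.59 to 0.67). Wdfy1 passed without KO replicate 1 (0.59). The 1 called identity gene became 2 with no filter and 7 without a minimum fold, the last beside 30.9% of all genes. With the replicate number as a block, 4 leading genes and 1 identity gene were called, and the pairing changed no other count. Depth limits the single-cell values most at P30, where 3 UMIs equal 21.6 CPM in WT and 21.5 CPM in KO.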

Other observations

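The histocompatibility genes H2-D1 and H2-K1, named after their values were seen, did not pass the test in horizontal cells. H2-D1 was at 31.6, 45 and 43.1 CPM in the WT libraries of P19, P25 and P30 and at 96.9, 116 and 179 CPM in KO (log2 difference 1.55, limma adjusted p = 0.051). H2-K1 was at 31.6, 61.4 and 35.9 CPM in WT and at 129, 116 and 108 CPM in KO (1.38, limma adjusted p = 0.18). For both genes every KO library lay above every WT library. In bulk retina their log2 fold changes were 1.79 and 2.47. Cd63, a lysosomal membrane gene, was at 21.1, 4.1 and 21.6 CPM in WT and at 57.1, 77.1 and 179 CPM in KO (2.36, limma adjusted p = 0.053). Nupr1, a stress response gene, was at 704 CPM in the KO P30 library and at 7.03 to 24.5 CPM in the other 5, with a log2 difference of 1.76 (limma adjusted p = 0.83).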
